A study of Rattus norvegicus with 4 samples.

Results

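The genes described here build the ribosome: 42 named genes of ribosome biogenesis and RNA polymerase I, listed by their function and matched by gene symbol. This list and the other gene lists below were chosen with earlier results of these data known. A row was found for 41 of the 42 genes among the 16290 genes of the deposited table. Nhp2 was not analysed here, and Heatr1 had too few reads to test, which left 40 tested genes among 12838. The libraries came from cultured heart muscle cells of rats at postnatal day 3 (source given as neonatal cardiomyocytes) that had received adenovirus vectors, carriers that bring a gene into cells. The vector of the Mock group encoded mock as the control and that of the Pdk3 group encoded Pdk3, a kinase that inhibits the pyruvate dehydrogenase complex. Both groups therefore carried an adenovirus. There were 2 libraries in each group, numbered 1 and 2, and the labels do not say whether they came from separate cultures or animals.

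Ribosomes are assembled in the nucleolus, where RNA polymerase I transcribes a long precursor of the ribosomal RNAs. Small nucleolar ribonucleoproteins (snoRNPs) modify this precursor, the box C/D kind by methylation and the box H/ACA kind by pseudouridylation. The small subunit processome and a separate set of large subunit factors then fold it, cleave it and load ribosomal proteins. This machinery is costly to the cell, and growing heart muscle cells are known to raise it.

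Of the 40 tested genes, 9 rose in the Pdk3 libraries and 0 fell (limma, adjusted p under 0.05). Of all genes tested, 11.7% rose and 11.3% fell by the same rule. The risers were the snoRNP genes Nop56, Nop58 and Nolc1, the small subunit genes Utp20, Wdr36, Nop14 and Utp18, the large subunit gene Rrp1b and the nucleolar protein gene Ncl. Their rises were small, between 1.101-fold for Nolc1 and 1.225-fold for Wdr36 (ratio of group means). None of the 6 polymerase I genes passed. At an unadjusted p under 0.05, 12 of the 40 were higher and 0 lower, against 17.8% and 18.6% of all genes. With counting noise alone 7 rose and 0 fell, against 8.87% and 8.27% of all genes. Both Pdk3 libraries lay above both Mock libraries for 21 of the 40 genes (29.9% of all genes) and below them for 2, Rrn3 and Polr1c (31.1% of all genes).

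The direction of the list as a whole depended on the scaling. The median log2 fold change of the 40 genes was 0.068 as deposited, against -0.007 for all genes tested. Each library was also scaled by the median deviation of its ribosomal protein genes, which shifted all 40 log2 fold changes by about -0.087 and left the ribosomal protein genes at a median of -0.010. The median of the 40 was then -0.019 against -0.094, with 4 genes higher (Nop56, Utp20, Wdr36 and Rrp1b) and 2 lower (Rrn3 and Ubtf). Over all genes, 7.26% were higher and 28.2% lower under that scaling, so 20.5% of the calls were upward in place of 50.8%. The 9 risers kept log2 fold changes above 0 under it.

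**Figure D1:**
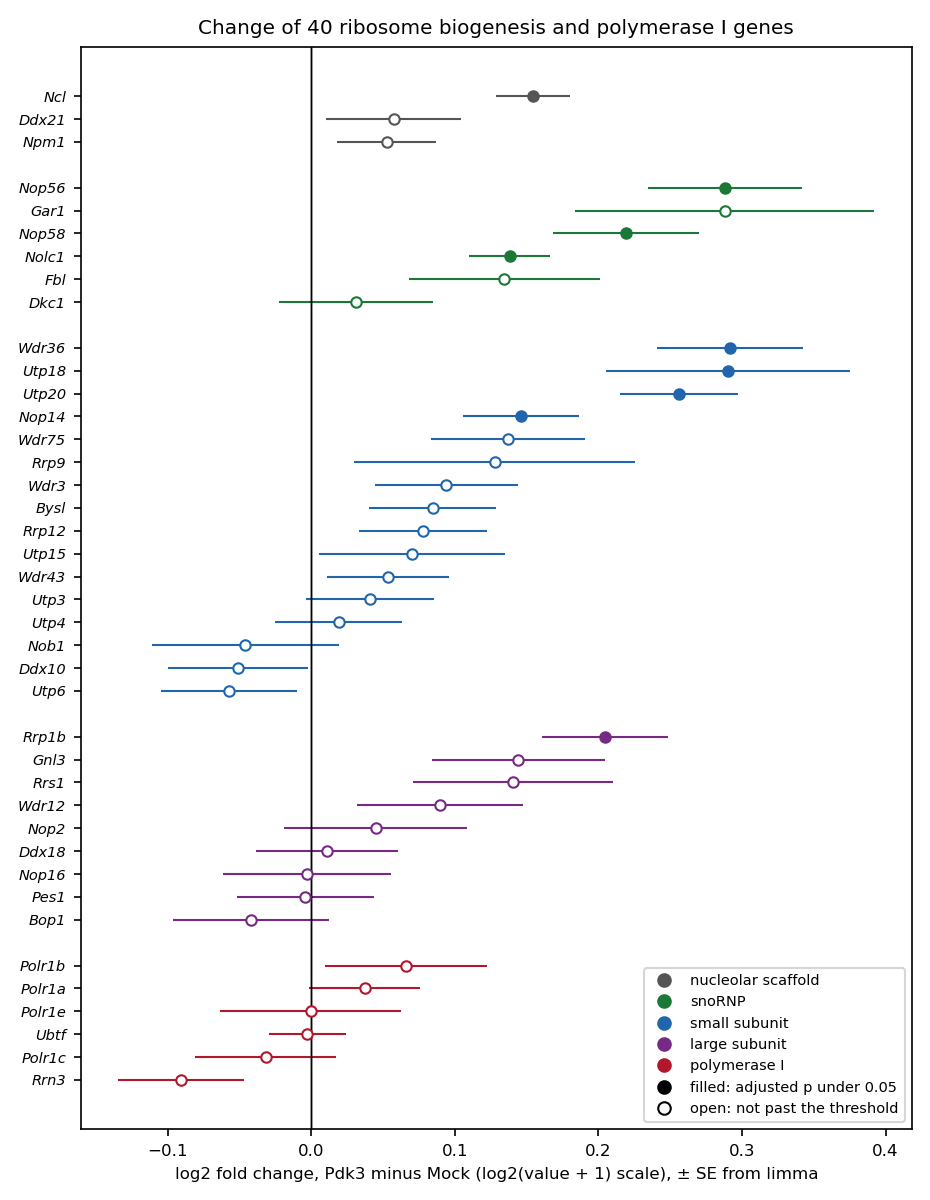
Log2 fold change of the 40 tested genes, Pdk3 minus Mock on the log2(value + 1) scale, by role; bars are standard errors from limma and filled points passed an adjusted p of 0.05. The filled points lie between 0.14 for Nolc1 and 0.29 for Wdr36, and the polymerase I genes lie between -0.09 and 0.07.

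Values are normalised read counts per gene, that is, reads scaled between libraries by the authors and rounded, and they are not divided by gene length, so levels are not compared between genes. They summed to 4448199 to 4476649 per library, from about 4139000 to 4707000 reads. Pdk3 itself was at 396 and 411 in Mock and at 1218 and 1177 in Pdk3, as the labels say; vector and cell transcripts are not separated. The spread within both pairs was below that of independent counting (0.600 of it in Mock and 0.610 in Pdk3, and 0.496 and 0.436 over the 40 genes), so p was also floored at counting noise. With that floor 7 of the 40 rose and 0 fell, against 8.38% and 7.46% of all genes, and the calls of Nop14 (adjusted p = 0.146) and Utp18 (adjusted p = 0.0887) ended. With any single library left out, limma called 0 genes of all tested, with 1 residual degree of freedom.

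All 10 cardiomyocyte markers were detected in every library (summed counts 22533 to 22792 in Mock and 23231 to 23594 in Pdk3), and 5 rose and 1 fell. By the same rule, 11.7% of all genes tested rose and 11.3% fell. Genes of S phase and mitosis rose in 20 of 20 cases (6864 and 6910 in Mock, 12346 and 12734 in Pdk3). Of 8 measured macrophage markers 5 fell (1289 to 1372 in Mock, 1049 to 1088 in Pdk3), of 7 endothelial ones 2 fell (1454 to 1534 and 1363 to 1407), of 7 fibroblast ones 1 (5416 to 5484 and 5265 to 5416) and of 5 tested mesothelial ones 2 (293 in both Mock libraries, 214 to 241 in Pdk3). The 3 other tested mesothelial markers, Wt1, Upk1b and Msln, had log2 fold changes of 0.44, 0.18 and 0.09, not past the threshold. Of the endothelial log2 fold changes 6 lay below 0 and 1 above, Kdr (0.13). Of the fibroblast ones 5 lay below 0 and 2 above, Pdgfra (0.24) and Col1a1 (0.005). Kdr, Pdgfra and Col1a1 did not pass either. Of 6 smooth muscle markers 3 rose (3461 to 3527 and 3900 to 3903). The 3 erythroid markers with a row summed to 36 to 43 in Mock and 24 to 30 in Pdk3, with 0 of 1 tested past the threshold. No marker with a row was at 0 in all libraries. In bulk RNA, fewer cells of a type and less RNA per cell cannot be told apart, and the part of these shifts in the results below was not tested.

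MYC is known to drive many of these genes through E-boxes, and Myc itself was at 270 and 288 in Mock and at 258 and 246 in Pdk3 (log2 fold change -0.15, adjusted p = 0.110). Within its network of 11 tested genes 0 rose and 4 fell, against 11.7% and 11.3% of all genes. Among those that fell were Mxd4 (-0.22), Mxi1 (-0.40) and Mxd1 (-0.27), whose products are known to pair with MAX and repress E-box genes. The other 7 did not pass, among them Mnt (-0.10), Mxd3 (0.04) and Mga (0.065), with limma adjusted p of 0.194, 0.718 and 0.134. A part of these genes in the rises was not tested.

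Promoters of the genes were searched for the E-box, CACGTG, which reads the same on both strands. RefSeq windows (build GRCr8) were found for 39 of the 42 genes, of which 38 had values, and the 250 bases before the gene start were read. An E-box stood in 8 of the 38 (21.1%), against 5.59% of all 33469 windows. Those windows were not limited to the 12838 tested genes, so the 2 shares are not like for like and cannot show an enrichment. Of the tested genes, 2 of 8 with an E-box rose and 7 of 29 without one (medians 0.084 and 0.070 on the log2 scale). The 4 sequences below are those of Utp20 and Utp18, the 2 risers with the motif, and of Ncl and Nop56, of small p among those without it, 5′ to 3′ in the direction of the gene, with the E-box in capitals. Utp20 (chr7:25102850-25103099, minus strand) has it 127 bases before the start and Utp18 (chr10:79335758-79336007, minus strand) 90 bases before it. Ncl (chr9:94456084-94456333, minus strand) and Nop56 (chr3:137929929-137930178, plus strand) have none in this window.
Utp20: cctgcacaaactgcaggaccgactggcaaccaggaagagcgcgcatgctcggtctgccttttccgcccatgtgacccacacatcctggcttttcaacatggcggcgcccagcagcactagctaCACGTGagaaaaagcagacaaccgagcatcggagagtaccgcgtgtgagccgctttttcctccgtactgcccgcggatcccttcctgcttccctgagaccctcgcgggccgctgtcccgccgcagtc
Utp18: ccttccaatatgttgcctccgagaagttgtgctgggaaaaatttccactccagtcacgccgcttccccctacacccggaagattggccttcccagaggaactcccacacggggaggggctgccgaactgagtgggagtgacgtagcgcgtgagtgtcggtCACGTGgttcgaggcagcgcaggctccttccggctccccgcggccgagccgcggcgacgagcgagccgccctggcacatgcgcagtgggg
Ncl: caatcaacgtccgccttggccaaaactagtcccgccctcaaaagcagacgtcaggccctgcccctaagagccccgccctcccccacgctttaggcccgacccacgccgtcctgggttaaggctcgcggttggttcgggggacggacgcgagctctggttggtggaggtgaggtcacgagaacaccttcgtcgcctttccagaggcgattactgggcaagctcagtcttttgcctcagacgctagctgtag
Nop56: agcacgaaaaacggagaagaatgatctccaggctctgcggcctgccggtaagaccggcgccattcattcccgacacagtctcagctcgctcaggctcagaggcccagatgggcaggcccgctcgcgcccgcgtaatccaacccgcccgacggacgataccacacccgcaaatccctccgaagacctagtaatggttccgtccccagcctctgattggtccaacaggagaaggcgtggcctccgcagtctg
A match is a description of these letters and not a bound site. Among the risers the motif was present in Utp20 and Utp18 and absent from the other 7 windows.

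Among the snoRNP genes, 3 of 6 rose, against 11.7% of all genes tested. Nop56, a core protein of box C/D particles (ENSRNOG00000007128, chromosome 3, 122803772 to 122808558, plus strand, rn6), stood at 318 and 296 in Mock and at 385 and 365 in Pdk3. Both Pdk3 libraries stood above both Mock libraries. The mean went from 307.0 ± 15.6 to 375.0 ± 14.1 (SD, n = 2 each), a log2 fold change of 0.29 ± 0.05 (SE; limma adjusted p = 0.00831). Nop58, its partner in the same particle (ENSRNOG00000016486, chromosome 9, 66495832 to 66519788, plus strand), was at 394 and 420 in Mock and at 491 and 457 in Pdk3. The groups did not overlap, and the log2 fold change was 0.22 ± 0.05 (adjusted p = 0.0197). Nolc1 encodes a nucleolar phosphoprotein that binds both kinds of snoRNP (ENSRNOG00000018704, chromosome 1, 265829108 to 265839818, plus strand). It stood at 757 and 744 in Mock and at 835 and 817 in Pdk3, again without overlap, a log2 fold change of 0.14 ± 0.03 (adjusted p = 0.0124).

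The other snoRNP genes did not pass. Fbl, the methyltransferase of box C/D particles, was at 166 and 160 in Mock and at 178 and 180 in Pdk3 (log2 fold change 0.13, 95% interval -0.02 to 0.29, adjusted p = 0.190). Gar1, a box H/ACA protein, was at 78 and 74 against 91 and 95, with a log2 fold change of 0.29 and an adjusted p of 0.0873. Both genes were higher in each Pdk3 library than in each Mock library, though by amounts that the test did not call. Dkc1, the pseudouridine synthase of box H/ACA particles, overlapped between groups, at 382 and 347 against 371 and 373 (adjusted p = 0.716). Without overlap and upward stood 5 of the 6 snoRNP genes, against 29.9% of all genes tested. The 373 bases at the end of Fbl lie inside the gene Dyrk1b on the same strand, so reads there are uncertain.

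Some of these genes carry snoRNA genes in their body. The table lists 7 such snoRNA genes on the same strand, inside Nop56, Nop58 and Gnl3. Their normalised counts were between 0 and 6 in every library. That is too low for the test, and the libraries were made for mRNA.

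The small subunit genes gave 4 rises among 16 tested. Utp20, a large scaffold protein of the processome (ENSRNOG00000005823, chromosome 7, 29296963 to 29378080, minus strand), was at 484 and 514 in Mock and at 606 and 586 in Pdk3. Its mean of 499.0 ± 21.2 in Mock compared with 596.0 ± 14.1 in Pdk3, without overlap, which is 0.26 ± 0.04 on the log2 scale (adjusted p = 0.00431). Wdr36, a WD-repeat protein of the processome (ENSRNOG00000027355, chromosome 18, 25637588 to 25665639, plus strand), was at 278 and 272 in Mock and at 347 and 327 in Pdk3. Its log2 fold change was 0.29 ± 0.05 (adjusted p = 0.00613), with each Pdk3 library above each Mock library. Utp20 and Wdr36 also passed with p floored at counting noise (adjusted p = 0.00448 and 0.00662).

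Nop14, which joins the processome with the small subunit precursor (ENSRNOG00000012147, chromosome 14, 81340041 to 81362441, plus strand), was at 405 and 419 in Mock and at 449 and 463 in Pdk3. Utp18, another WD-repeat protein of the complex (ENSRNOG00000002644, chromosome 10, 81562409 to 81587858, minus strand), was at 134 and 121 against 160 and 152. The groups of both genes stood apart, with log2 fold changes of 0.15 ± 0.04 (adjusted p = 0.0368) and 0.29 ± 0.08 (adjusted p = 0.0455).

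None of the other 12 tested small subunit genes was called, and they ranged from -0.06 for Utp6 to 0.14 for Wdr75 on the log2 scale. Wdr75 and Wdr43, Utp4 and Utp15 belong to the subcomplex that binds the nascent precursor RNA. Wdr75 was at 371 and 362 in Mock and at 423 and 384 in Pdk3 (adjusted p = 0.110). Wdr43 was at 475 and 492 against 487 and 517, with overlap (adjusted p = 0.406). Utp4 and Utp15 overlapped as well, with log2 fold changes of 0.02 and 0.07. None of the 4 passed.

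Rrp12, which takes part in late maturation and export of the precursor, was at 570 and 589 in Mock and at 637 and 587 in Pdk3 (log2 fold change 0.08, 95% interval -0.03 to 0.18, adjusted p = 0.254). Nob1, the endonuclease that makes the final cut of the small subunit RNA, was at 296 and 336 against 303 and 308, with the groups overlapping. Bysl, a late assembly factor, and Wdr3 and Utp3, both of the processome, were higher in each Pdk3 library than in each Mock library, without passing (adjusted p = 0.213, 0.218 and 0.553). Rrp9, a protein of the snoRNP that guides the early cleavages, and Ddx10, an RNA helicase, overlapped, with log2 fold changes of 0.13 and -0.05. Heatr1, known to link the processome to polymerase I, was at 5 and 4 in Mock and at 3 and 4 in Pdk3. The table's names for it include a second copy, Heatr1l1, so its reads may be split, and nothing is drawn from it.

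Of the 9 large subunit genes, 1 rose (11.1%), close to the 11.7% of all genes tested. Rrp1b, a nucleolar protein of precursor processing (ENSRNOG00000001194, chromosome 20, 10844266 to 10869821, plus strand), was at 641 and 587 in Mock and at 701 and 713 in Pdk3. The mean went from 614.0 ± 38.2 to 707.0 ± 8.49, with no overlap and a log2 fold change of 0.20 ± 0.04 (adjusted p = 0.0149). Gnl3 (nucleostemin), a nucleolar GTPase abundant in proliferating cells, was at 303 and 314 against 323 and 360 (log2 fold change 0.14, adjusted p = 0.129). Rrs1, which helps to place the small ribosomal RNA of the large subunit, was at 178 and 195 against 202 and 209 (adjusted p = 0.190). Both were higher in each Pdk3 library but were not called.

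Pes1, Bop1 and Wdr12 form one complex needed for large subunit processing, and none of the 3 passed. Pes1 was at 411 and 445 in Mock and at 421 and 432 in Pdk3, a log2 fold change of -0.004 with a 95% interval of -0.12 to 0.11. Bop1 was at 385 and 370 against 384 and 350 (adjusted p = 0.624). The groups overlapped for both, while Wdr12, at 201 and 202 against 217 and 212, did not overlap (adjusted p = 0.311). Bop1 overlaps Scx and Mroh1 on the opposite strand, and the strand setting of the counts is not given in the sources used here. Nop2, a methyltransferase of the large subunit RNA, Nop16, an assembly factor, and Ddx18, an RNA helicase, lay between -0.003 and 0.045 on the log2 scale, with overlap in each.

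Ncl rose among the abundant nucleolar proteins. Nucleolin, its product, binds precursor RNA and ribosomal DNA (ENSRNOG00000018273, chromosome 9, 93368932 to 93377643, minus strand). Its normalised counts were 810 and 817 in Mock and 910 and 901 in Pdk3. Its mean of 813.5 ± 4.95 in Mock compared with 905.5 ± 6.36 in Pdk3, without overlap, which is 0.15 ± 0.03 on the log2 scale (adjusted p = 0.00521). Scaled to genes for ribosomal proteins the call ended (adjusted p = 0.124), as did those of Nolc1 (0.261), Nop58 (0.0523), Nop14 (0.379) and Utp18 (0.0926).

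Npm1, a histone-binding chaperone of the nucleolus, was at 564 and 545 in Mock and at 571 and 579 in Pdk3 (log2 fold change 0.05, adjusted p = 0.314). Ddx21, a helicase that acts in precursor transcription and processing, was at 325 and 344 against 347 and 349 (adjusted p = 0.422). Each stood slightly higher in both Pdk3 libraries; both changes are smaller than the shift that the scaling to ribosomal protein genes applies to every gene, and are negative under it (-0.035 and -0.030). Npm1 is known for many processed copies in rodent genomes, so its counts are uncertain.

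**Figure D2:**
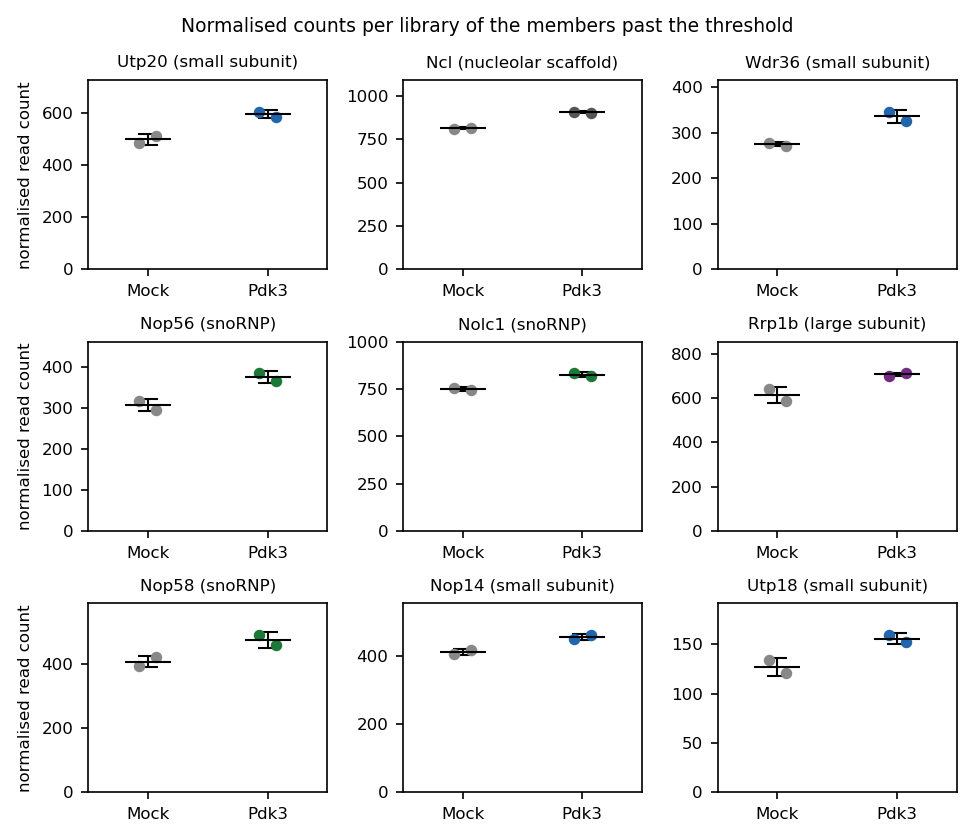
Normalised read counts per library of the 9 genes that passed the threshold; grey points are Mock, coloured points Pdk3, and bars show mean ± SD (n = 2 each). Both Pdk3 points lie above both Mock points in each panel, with the lowest counts in Utp18 (121 to 160) and the highest in Ncl (810 to 910).

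None of the 6 polymerase I genes passed in either direction, and at an unadjusted p under 0.05 the number was 0 as well. The shares of all genes were 11.7% higher and 11.3% lower past the threshold, and 17.8% and 18.6% at that unadjusted p. Polr1a, the largest subunit, was at 593 and 602 in Mock and at 633 and 594 in Pdk3 (log2 fold change 0.04, 95% interval -0.05 to 0.13). Polr1b, the second largest, was at 211 and 215 against 225 and 221 (adjusted p = 0.445). Polr1a overlapped between the groups, while Polr1b did not. Polr1c, shared with polymerase III, was at 276 and 277 against 274 and 267 (adjusted p = 0.680). Polr1e, a subunit of the polymerase I initiation module, was at 196 and 202 against 204 and 194, the same mean of 199.0 in both groups.

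Rrn3 and Ubtf bring the polymerase to its promoter. Rrn3, the initiation factor that makes the polymerase competent, was at 329 and 327 in Mock and at 308 and 308 in Pdk3, lower in both libraries. Its log2 fold change was -0.09 ± 0.04 with a 95% interval of -0.19 to 0.01 (adjusted p = 0.181). Ubtf, which binds ribosomal DNA along its length, was at 881 and 886 against 871 and 893. Its log2 fold change was -0.003 with a 95% interval of -0.06 to 0.06 (adjusted p = 0.957). Scaled to ribosomal protein genes, both passed with negative values (adjusted p = 0.0179 for Rrn3 and 0.0457 for Ubtf). Of all genes, 28.2% were called lower under that scaling. It shifts each gene by about -0.087 by construction, and Ubtf lay at -0.090 under it.

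By role, the summed normalised counts of the snoRNP genes were 2095 and 2041 in Mock and 2351 and 2287 in Pdk3, 112.1% of the Mock mean. The 3 nucleolar proteins reached 107.4% of it (1699 and 1706 against 1828 and 1829), the 16 small subunit genes 106.7% (5459 and 5550 against 5890 and 5851) and the 9 large subunit genes 105.4% (2867 and 2838 against 2986 and 3029). In these 4 groups each Pdk3 library lay above each Mock library. The 6 polymerase I genes summed to 2486 and 2509 in Mock and to 2515 and 2477 in Pdk3, or 99.9%, and overlapped. Median log2 fold changes were 0.179, 0.058, 0.081, 0.045 and -0.001 in that order, and 0.091, -0.030, -0.006, -0.042 and -0.089 scaled to ribosomal protein genes. Leaving out 1 library moved the deposited-scale median to 0.098 for nucleolar proteins (without Mock 2), to 0.053 or 0.052 for small subunit genes (without Mock 1 or Pdk3 2) and to 0.075, 0.073 or 0.027 for large subunit genes (without Mock 1, Pdk3 1 or Pdk3 2). The polymerase I median lay between -0.022 and 0.011. For comparison, the 75 rows for ribosomal proteins summed to 15159 and 14993 in Mock and to 16164 and 15834 in Pdk3, also without overlap. Differences between roles were not tested, since genes are not replicates.

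**Figure D3:**
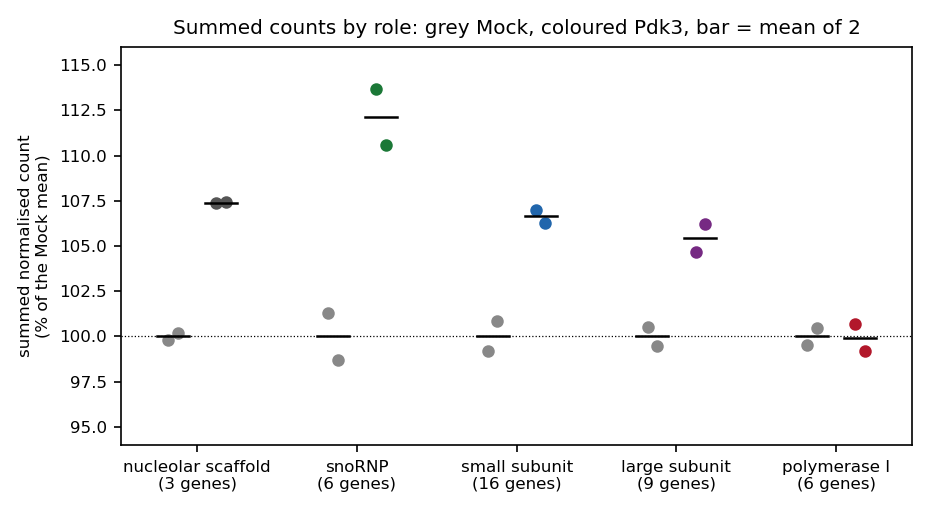
Summed normalised counts of the tested genes of each role in each library, as percent of the Mock mean; grey points are Mock, coloured points Pdk3, and the bars are means of 2 libraries. The snoRNP genes stand highest in Pdk3, at 113.7% and 110.6%, and the polymerase I genes lie at 100.7% and 99.2%; the axis does not start at 0.

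Further genes of the same machinery were taken from wider lists. Of 113 further tested genes of ribosome biogenesis and polymerase I, 11 rose (9.73%) and 2 fell (1.77%), with a median of 0.015. The shares over all genes tested were 11.7% and 11.3%, so rises were no more frequent in these lists. Among 11 other snoRNP genes 1 rose, Znhit6, an assembly factor of box C/D particles (260 and 292 against 337 and 343, adjusted p = 0.0127). Among 42 other small subunit genes 3 rose, namely Mphosph10, Nol10 and Pno1, with log2 fold changes of 0.20, 0.20 and 0.19. Among 48 other large subunit genes 5 rose, with Noc2l, Pak1ip1 and Spata5 of smallest p (0.22, 0.41 and 0.23), and Nop53 and Ddx27 fell (-0.22 and -0.18). With p floored at counting noise, 5 of the 113 rose and 1 fell, against 8.38% and 7.46% of all genes. The calls of Mphosph10, Nol10 and Pno1 then ended (adjusted p floored at counting noise = 0.0514, 0.076 and 0.183), as did those of Spata5 (0.07) and Ddx27 (0.0849). Of the 69 tested rows for ribosomal proteins 1 rose, Rpsa (0.11, adjusted p = 0.0448, and 0.234 floored at counting noise), at a list median of 0.077.

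Other parts of polymerase I included genes that did pass. Twistnb, the gene of subunit Polr1f (ENSRNOG00000010750), was at 260 and 268 in Mock and at 324 and 319 in Pdk3, a log2 fold change of 0.28 ± 0.05 (adjusted p = 0.00549). Cd3eap, the gene of subunit Polr1g (ENSRNOG00000016825), was at 148 and 140 against 169 and 195 (0.33 ± 0.09, adjusted p = 0.0323). They were 2 of 12 tested (16.7%, against 11.7% of all genes), and the median of the 12 was -0.113. Of the others, Polr1d was at 176 and 182 against 170 and 175 and the promoter factor gene Taf1d at 215 and 234 against 254 and 257, neither past the threshold (adjusted p = 0.606 and 0.0645). Of the 12 log2 fold changes, 5 lay above 0 and 7 below. Taf1a, Taf1b and Taf1c lay at -0.19 each, Znrd1 at -0.31 and Polr2e at -0.21, none past the threshold.

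**Figure D4:**
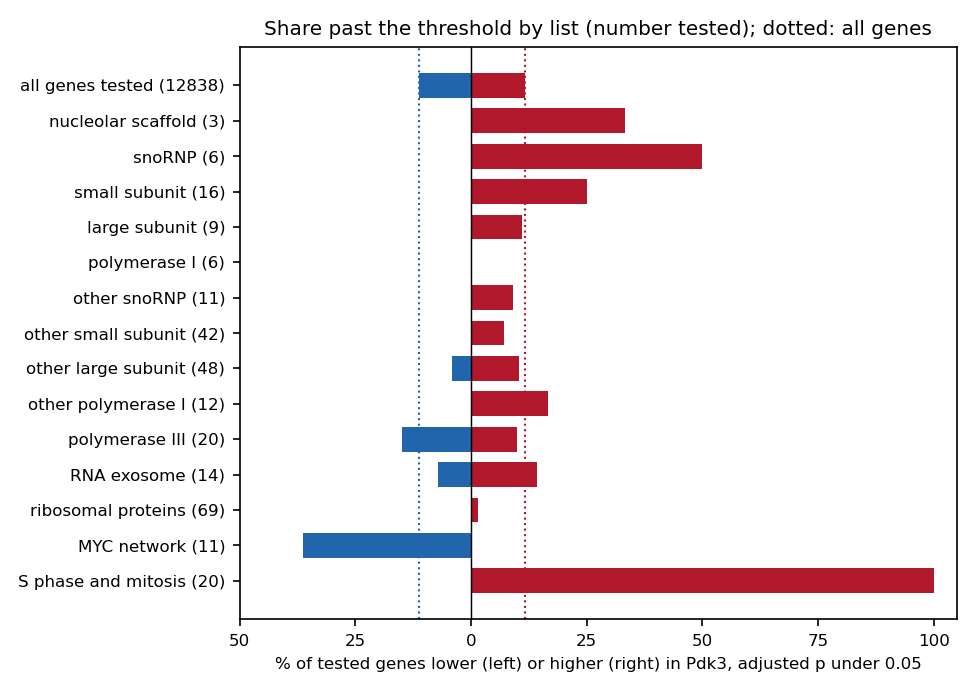
Share of tested genes lower (blue, left) or higher (red, right) in Pdk3 at a limma adjusted p under 0.05, for each role, the wider lists and all genes; numbers tested stand in parentheses and dotted lines mark 11.7% and 11.3% of all genes. Of the snoRNP genes 3 of 6 are higher, of the polymerase I genes 0 of 6, and of the S phase and mitosis genes 20 of 20.

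The number of calls depended on the setting. TMM scaling gave 9 higher and 0 lower of the 40 genes, against 14.4% and 11.7% of all genes. Without an intensity trend 0 passed either way, against 4.1% and 2.53%, and 11 of the 40 were higher and 0 lower at an unadjusted p under 0.05, against 14.3% and 15.4%. At a false discovery rate of 0.01, Ncl, Nop56, Utp20 and Wdr36 remained (5.97% of all genes higher). With a minimum log2 change of 0.2, 6 remained (8.08% of all genes), since Ncl, Nolc1 and Nop14 changed by less.

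**Figure D5:**
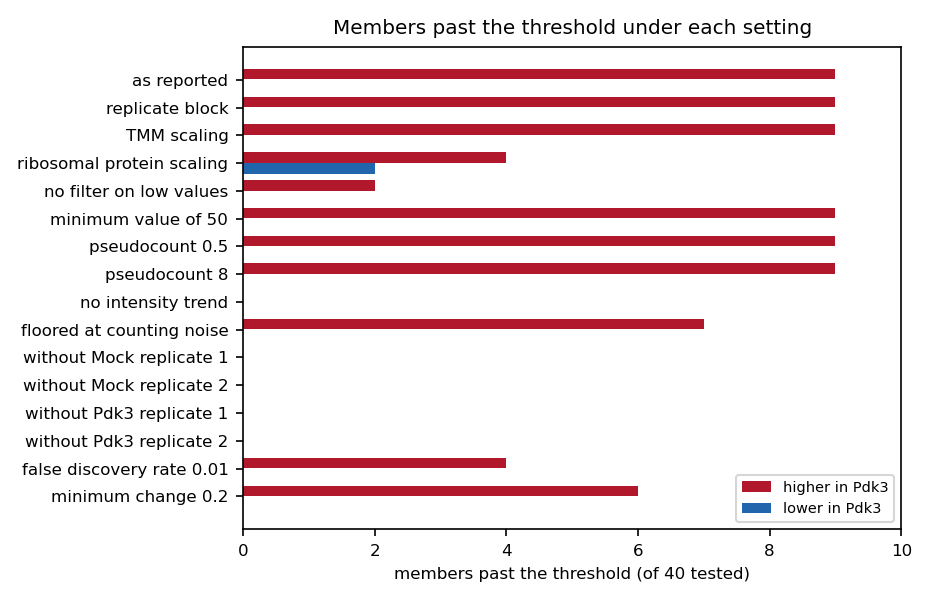
Number of the 40 genes past the threshold, higher (red) or lower (blue) in Pdk3, as reported and under the alternative settings named on the axis. Not drawn are the shares of all genes, 11.7% higher and 11.3% lower as reported and 8.38% and 7.46% with the floor. Scaled to ribosomal protein genes these shares were 7.26% and 28.2%, and without an intensity trend 4.1% and 2.53%. The count is 9 as reported, 7 with p floored at counting noise, 4 higher and 2 lower under scaling to ribosomal protein genes, and 0 without an intensity trend or with any library left out.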

How the data were processed

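The 42 genes and all gene lists were chosen with earlier results of these data known, so no count is independent support. Per the submitters' processing notes, the build was rn6 and the tools included DESeq2 1.26.0, featureCounts 1.6.5 (Subread), STAR 2.6.1d, Trimmomatic 0.39 and FastQC; their settings are not stated there. Per the labels' protocols, 1 µg of total RNA went into stranded mRNA libraries. The authors deposited values treated here as a score, read counts divided by a factor per library and rounded; from skipped and doubled whole numbers the factors were estimated at 0.9246 to 1.0567. How duplicates were handled, and with which strand setting reads were counted, is not stated there either.

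Values were tested as log2(value + 1) with limma 3.58.1 in R 4.3.3 (group as the single term, intensity trend, two-sided, Benjamini-Hochberg adjustment over 12838 genes), after a filter of at least 10 in at least 2 libraries. Residual degrees of freedom were 2, and limma's prior added 5.56. Fold changes on this scale understate those of low genes. Each p and each interval from limma reflects the spread among these 4 libraries alone, possibly a technical one. That spread was below independent counting, so the intervals can be narrower than counting error and do not cover it. Reads carried no molecular identifiers, so the floors cover counting error only. For the floor at counting noise, limma's p was raised to that of an exact binomial test on summed reads wherever the latter was larger. Alternatives also covered scaling, filters, pseudocounts, the trend, a replicate block and each library left out; counting noise alone was added after seeing the data. On data simulated for Pdk3 against Mock over 12727 genes with counting noise, 50 genes were altered at each fold: the test recovered 2% at 1.1-fold, 30% at 1.25-fold, 68% at 1.5-fold and 98% at 2-fold, and made 0 false calls. Every member may be named, up to 4 risers of smallest p and 2 other genes of highest mean per role being given in full; of other lists, up to 3 genes in each direction by smallest p. The annotation terms and Max, Mycn, Mxd1, Polr1d and Taf1d were picked after their values were seen. So were Mnt, Mxd3, Mga, Taf1a, Taf1b, Taf1c, Znrd1, Polr2e, Wt1, Upk1b, Msln, Kdr, Pdgfra and Col1a1. The promoter of Nop56 is shown as the next after Wdr36, which the rule gave.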

Additional observations from a re-analysis of the deposited data

How the results depend on the processing

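TMM scaling, pseudocounts of 0.5 and 8 and a minimum value of 50 each left the same 9 genes of the list higher and 0 lower. Scaled to ribosomal protein genes, 932 genes rose and 3615 fell over all genes, 4 and 2 in the list, 0 among the nucleolar proteins, 1 among snoRNP, 2 among small subunit genes, 2 lower among polymerase I genes, and 5 higher and 13 lower among the further genes. Medians there were -0.019 for the list, -0.030, 0.091, -0.006, -0.042 and -0.089 for nucleolar, snoRNP, small subunit, large subunit and polymerase I genes. That scaling shifts each gene by about -0.087 by construction, so small positive values had to turn negative, as in Nop2 (-0.042), Ddx18 (-0.076), Npm1 (-0.035), Ddx21 (-0.030), Polr1b (-0.021), Polr1a (-0.050), Bysl (-0.0027), Rrp12 (-0.0097), Wdr43 (-0.034), Utp15 (-0.017), Utp3 (-0.046), Utp4 (-0.068), Dkc1 (-0.056) and Mycn (-0.042). Under TMM scaling the sign turned positive for Pes1 (0.0064), Nop16 (0.0076), Ubtf (0.0079) and Polr1e (0.010). Without a filter on low values 737 rose and 539 fell over all genes, 2 in the list, 0 snoRNP, 1 small subunit and 0 large subunit genes, and 3 and 0 of the further genes. Without an intensity trend the numbers were 526 and 325, 0 in the list and in each role, and 1 and 0 of the further genes, with 11 of the list higher at an unadjusted p under 0.05 (27.5%, against 14.3% of all genes). Floored at counting noise, 958 genes fell, 2 small subunit genes rose, and 5 rose and 1 fell of the further genes. At a false discovery rate of 0.01 the numbers were 766 and 576 over all genes, 4 in the list, 1 snoRNP, 2 small subunit and 0 large subunit genes, and 2 and 0 of the further genes. With a minimum change of 0.2, 963 genes fell, 0 nucleolar proteins rose and 1 further gene fell; with a minimum value of 50, 4 further genes fell. Other causes were not tested.

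With each library left out, limma gave 0 to 0 calls for all genes, the list, each role and the further genes in either direction, while 7 to 9 of the list (17.5% to 22.5%) were higher at an unadjusted p under 0.05, against 12.2% to 12.9% of all genes, and 0 lower except 1 (Nob1) without Mock 1, against 10.6% to 13.6%; all 9 risers stayed above 0. Where an arm held 1 library, it was assumed to vary like the other group. Counting noise alone then called 777 higher and 632 lower genes and 4 of the list without Mock 1, 844, 743 and 2 without Mock 2, 795, 628 and 2 without Pdk3 1, and 784, 602 and 4 without Pdk3 2. Medians ranged from 0.053 to 0.098 for nucleolar, 0.155 to 0.206 for snoRNP, 0.052 to 0.103 for small subunit, 0.027 to 0.075 for large subunit and -0.022 to 0.011 for polymerase I genes. Log2 fold changes ranged across 0 for Bop1 (-0.11 to 0.025), Nop2 (-0.015 to 0.10), Ddx18 (-0.0027 to 0.024), Pes1 (-0.061 to 0.053), Nop16 (-0.042 to 0.036), Polr1a (-0.0084 to 0.083), Ubtf (-0.0205 to 0.015), Polr1e (-0.036 to 0.036), Nob1 (-0.14 to 0.045), Utp4 (-0.013 to 0.052) and Dkc1 (-0.038 to 0.10). With the replicate block, 1374 genes rose and 1298 fell and 9 of the list rose. The differences within the 2 pairs correlated at 0.038 across genes, which are not independent. As the spread within pairs was below counting noise, this value cannot show whether libraries of the same number shared a culture or batch. At about 4139000 to 4707000 reads, with full counting noise, the simulated test recovered 2% of changes of 1.1-fold; the spread in these libraries was smaller than that.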

Other observations

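Of 20 polymerase III genes 2 rose and 3 fell, shares close to the 11.7% and 11.3% of all genes tested. Polr3a, its largest subunit, averaged 632.0 ± 31.1 in Mock and 751.0 ± 15.6 in Pdk3 (SD, n = 2 each, log2 fold change 0.25, limma adjusted p = 0.00431). Polr3g, a subunit known from proliferating and stem cells, was at 53 and 43 against 70 and 79 (0.63, adjusted p = 0.0226). Gtf3c1, a subunit of transcription factor IIIC, fell from 1229 and 1215 to 1093 and 1106 (-0.15, adjusted p = 0.00325), and Maf1, a repressor of polymerase III, and Polr3c fell by 0.15 and 0.17 on the log2 scale. The calls of Maf1 and Polr3c ended with p floored at counting noise (adjusted p = 0.126 and 0.165).

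Of 14 genes of the RNA exosome, which trims precursor ribosomal RNA, 2 rose (14.3%) and 1 fell (7.14%). The shares over all genes were 11.7% and 11.3%. Exosc2 was at 169 and 192 in Mock and at 241 and 253 in Pdk3 (log2 fold change 0.45, adjusted p = 0.00533). Exosc10 rose by 0.14 (adjusted p = 0.0406) and Exosc4 fell by 0.26 (adjusted p = 0.0391), both lost with the floor (0.101 and 0.106). In the MYC network, Mlxip also fell (524 and 499 against 421 and 437), while Mycn (108 and 114 against 115 and 114) and Max (411 and 414 against 395 and 376) did not pass (adjusted p = 0.750 and 0.140).

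By the table's own annotation, 156 tested genes outside the list carry the term ribosome biogenesis, of which 14 rose (8.97%) and 3 fell (1.92%), and 3 of 23 within the list rose. Of 508 others with the term nucleolus, 72 rose (14.2%) and 43 fell (8.46%), and 4 of 31 within the list rose (12.9%). By limma, 11.7% of all genes tested rose and 11.3% fell, so the shares that rose under these 2 terms are near that of all genes. For the term rRNA processing 10 of 100 others rose and 3 of 19 within the list (15.8%). Of 16 others with the term snoRNA binding 0 rose and 0 fell by limma, against 3 and 0 of 8 within the list.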
